A study of Mus musculus with 6 samples.

Results

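The histone methylation enzyme genes are here the 44 protein-coding genes whose symbols begin with Kdm, Kmt, Setd or Prmt, out of 21887 protein-coding genes in the annotation used. They comprise 18 Kdm, 8 Kmt, 10 Setd and 8 Prmt genes, and the rule that picks them reads the symbol and no measured value. Chromatin accessibility was profiled by ATAC-seq, in which the Tn5 transposase inserts sequencing adapters into open DNA, in CGR8 mouse embryonic stem cells. The series names its untreated line CGR8 Cdt1-MD, and its title concerns the exit from mitosis in pluripotent cells. The 6 deposited peak lists fall into 3 stages with 2 lists each, labelled mito, LM and eG1-1, which are read here as mitosis, late mitosis and early G1 because the labels do not spell them out. The cells of all 3 stages were of the same line, and the labels name no further genotype or agent that differs between stages. All were grown in N2B27-type medium with leukaemia inhibitory factor, the GSK3 inhibitor CHIR99021 at 3 µM and the MEK inhibitor PD184352 at 1 µM. The sample titles read 10K and the protocol gives 50000 cells, so the number of cells per library is uncertain. Nothing in the labels ties the replicates to separate cultures, so their spread may be technical.

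Histone lysine methylation is written by SET-domain enzymes and erased by the flavin-dependent Kdm1 enzymes and the JmjC-domain Kdm2 to Kdm8 enzymes, while the Prmt enzymes methylate arginines. Methylation of histone H3 at lysine 4 marks promoters and enhancers, methylation at lysine 36 marks transcribed gene bodies, and methylation at lysines 9 and 27 marks silent chromatin. In embryonic stem cells the balance of these marks at developmental genes is a classical feature of the pluripotent state. The measurements below concern open DNA at the genes that encode the enzymes, not the marks themselves, RNA or protein.

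A gene was held by a list where a peak overlapped the window of 1 kb either side of its annotated start or end, and its value was the highest score of such a peak. The score is the authors' own whole number for each peak, with a minimum of 13 in every list and a scale that no source used here gives, and 0 below means that no peak was listed. Scores were therefore tested only as ranks within a list. The lists held 24598 and 30446 peaks for mito, 23867 and 20639 for LM, and 32101 and 48396 for eG1-1. Read depth is unknown, so a missing peak shows that none was listed and not that the DNA was closed. Fewer cells with an open site and a less open site in each cell cannot be told apart. The replicate number is also the sequencing run, as the peak names show, with run NXT1088 for replicate 1 and run NXT1106 for replicate 2 of every stage. Of 8 pluripotent stem cell markers 7 were held by at least 1 list, the exception being Esrrb, and per list 7 and 5 were held at mito, 4 and 4 at LM, and 2 and 6 at eG1-1. None of 4 endoderm markers and none of 3 blood markers was held, whereas 3 of 5 fibroblast, 2 of 4 trophoblast and 3 of 3 neural markers were held by at least 1 list.

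Histone methylation enzyme genes carried gene-end peaks more often than protein-coding genes in general at all 3 stages. In mito they were held at 84.1% and 77.3%, in LM at 72.7% and 59.1%, and in eG1-1 at 56.8% and 72.7% of 44. The same shares over all protein-coding genes were 46.6% and 50.4% at mito, 47.4% and 35.7% at LM, and 42.1% and 52.7% at eG1-1. The excess in each list lay between 14.7 percentage points, in eG1-1 replicate 1, and 37.5 percentage points, in mito replicate 1. As stage means, 80.7% ± 4.82 of the enzyme genes were held at mito, 65.9% ± 9.64 at LM and 64.8% ± 11.2 at eG1-1, against 48.5% ± 2.74, 41.6% ± 8.26 and 47.4% ± 7.50 of all genes (SD, n = 2 lists each). The mito shares lay above those of the other stages in both lists, while the LM and eG1-1 shares overlapped. With 2 lists against 2, an exact two-sided permutation test of 1 pair of stages cannot give a p below 0.333, and the difference in these shares was not tested. Within run NXT1088 the shares were 84.1% for mito, 72.7% for LM and 56.8% for eG1-1. Within run NXT1106 they were 77.3% for mito, 59.1% for LM and 72.7% for eG1-1, so mito was the highest in both runs and the order of the later stages differed. The lowest LM share was that of the shortest list, LM replicate 2, and the part of list length in these shares was tested only by cutting the lists to equal length. At 20639 peaks each, mito shares were 79.5% and 68.2%, LM shares 72.7% and 59.1%, and eG1-1 shares 50.0% and 56.8%, so that mito and LM overlapped. All genes then had 43.7% and 43.5% for mito, 44.9% and 35.7% for LM, and 34.5% and 35.8% for eG1-1. With peaks of a score of at least 50, mito shares were 72.7% and 65.9%, LM shares 59.1% and 43.2%, and eG1-1 shares 47.7% and 65.9%. Mito replicate 2 and eG1-1 replicate 2 were thus equal. All genes at that score had 35.4% and 41.5% for mito, 35.8% and 24.1% for LM, and 29.6% and 41.65% for eG1-1.

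**Figure D1:**
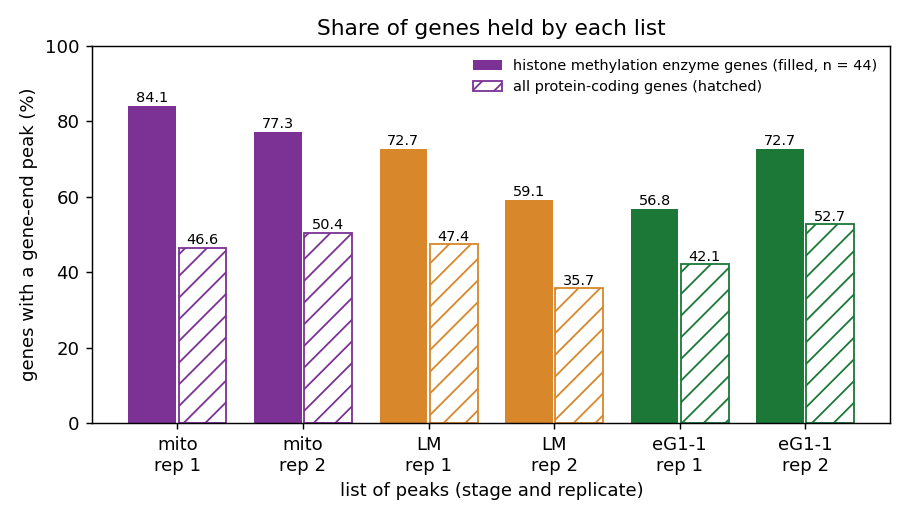
Share of genes with a gene-end peak in each of the 6 lists, in percent, for the 44 histone methylation enzyme genes (filled bars) and all 21887 protein-coding genes (hatched bars). The filled bar is the higher of the pair in every list, by 14.7 to 37.5 percentage points.

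All 6 lists held 22 of the 44 genes, or 50.0%, where the background share of protein-coding genes held by all 6 lists (percent called) was 27.8%. Backgrounds here and below are percentages of all genes or regions counted in the same way. At the other end, 5 genes were held by none, against a background of 38.6%. These were Kdm2b, Kdm4c, Kdm5b, Kdm5d and Setd1b. Of the rest, 1 gene was in 1 list, 5 in 2 lists, 4 in 3 lists, 4 in 4 lists and 3 in 5 lists. Of the 36 genes with a known strand, 32 had a gene-end peak, and 31 of these had it at the start. In at least 1 list, a gene-end peak was shared with a neighbouring protein-coding gene for 14 of the 44 genes, 9 of them among the 22 held throughout, and such a peak cannot be assigned to either gene alone.

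**Figure D2:**
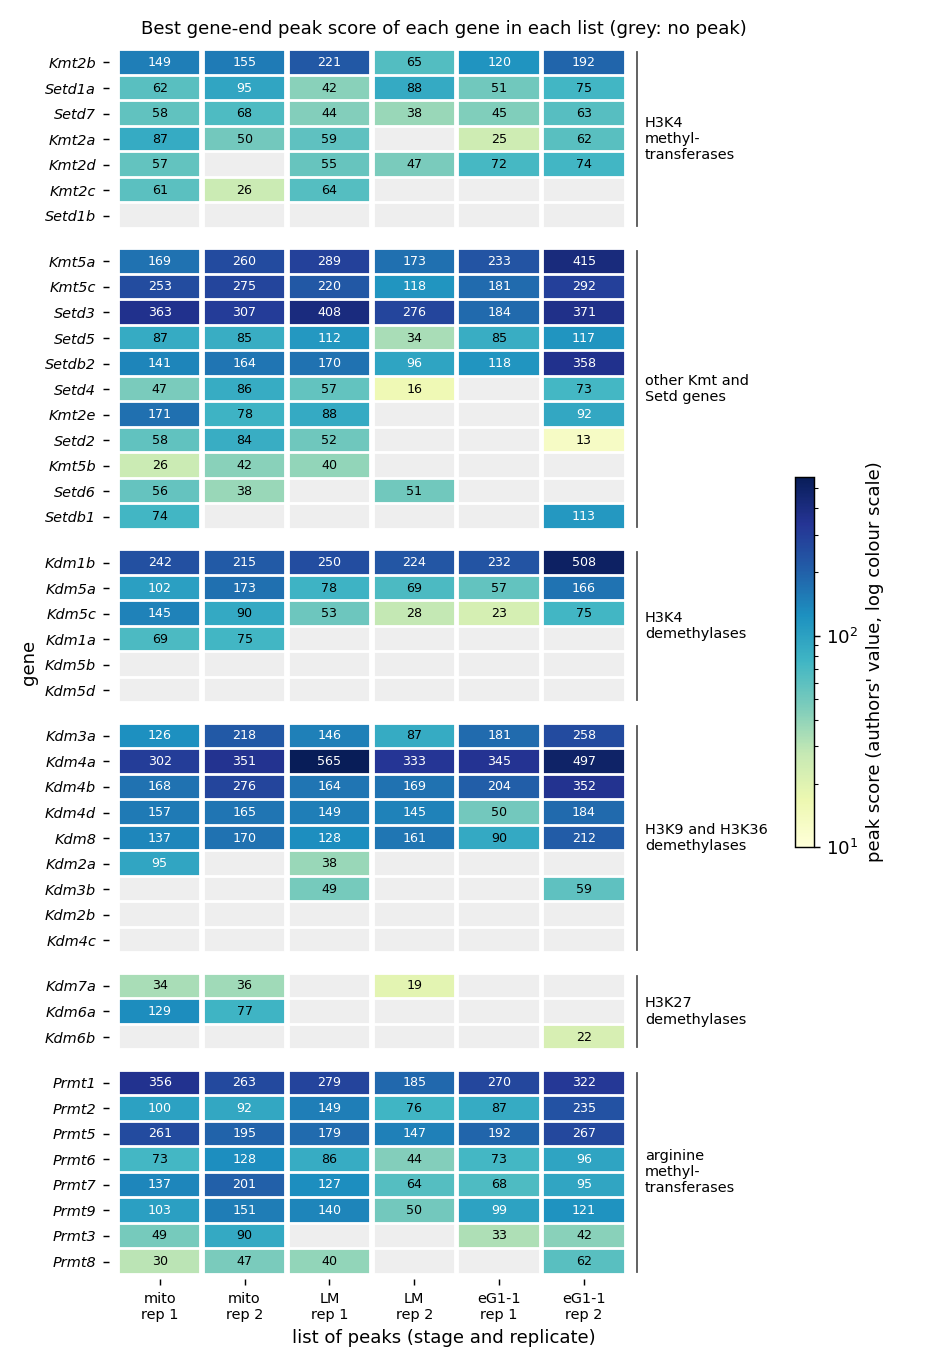
Highest gene-end peak score (the authors' value, logarithmic colour scale, printed in each cell) for each of the 44 genes in each list, with genes grouped by the role of their product. Grey cells mark genes without a listed gene-end peak, and the 22 complete rows are the genes held by all 6 lists.

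The 200 bases upstream of the start are shown for 7 genes, because the peaks that hold or lack these genes lie on or beside them. By their annotated ends, the first 3 belong to genes held by both mito lists but neither eG1-1 list, and the other 4 to genes held by all 6 lists. They are examples and do not stand for their groups. Kdm6a, Kdm7a and Kmt2c of the first group are not shown, nor is Prmt1, whose median percentile was above those of Kmt5a and Kdm1b. Around the Kmt5b start shown, however, eG1-1 replicate 1 also held a peak, with a score of 27. Sequences are from RefSeq on GRCm38.p6, 5′ to 3′ on the strand of the gene. Capitals mark matches on either strand to the 7 motifs searched, which were the GC box (GGGCGG), the CCAAT box (CCAAT), and the motifs of ETS factors (CCGGAAG), CRE-binding factors (TGACGTCA), YY1 (AAGATGGCG), NRF1 and ZNF143.
Kdm1a, chr4:136602724-136602923, minus strand: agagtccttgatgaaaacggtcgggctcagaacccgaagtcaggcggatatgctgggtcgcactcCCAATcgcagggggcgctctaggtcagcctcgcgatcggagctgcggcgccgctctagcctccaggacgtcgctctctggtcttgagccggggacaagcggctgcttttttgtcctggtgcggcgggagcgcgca
Kmt5b, chr19:3767689-3767888, plus strand, upstream of its inner listed start: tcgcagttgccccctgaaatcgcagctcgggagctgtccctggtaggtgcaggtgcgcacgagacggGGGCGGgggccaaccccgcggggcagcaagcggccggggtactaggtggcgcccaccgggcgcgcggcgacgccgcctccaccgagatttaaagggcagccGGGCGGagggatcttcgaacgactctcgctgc
Setd6, chr8:95715713-95715912, plus strand: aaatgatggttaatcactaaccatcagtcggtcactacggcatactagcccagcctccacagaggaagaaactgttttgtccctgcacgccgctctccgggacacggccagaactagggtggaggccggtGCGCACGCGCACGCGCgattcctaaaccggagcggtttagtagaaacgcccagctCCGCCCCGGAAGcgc
Kdm4a, chr4:118180044-118180243, minus strand: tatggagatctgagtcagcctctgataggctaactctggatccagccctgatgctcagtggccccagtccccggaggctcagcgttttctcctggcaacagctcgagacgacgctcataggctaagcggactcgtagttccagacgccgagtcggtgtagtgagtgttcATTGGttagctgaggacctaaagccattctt
Setd3, chr12:108179285-108179484, minus strand: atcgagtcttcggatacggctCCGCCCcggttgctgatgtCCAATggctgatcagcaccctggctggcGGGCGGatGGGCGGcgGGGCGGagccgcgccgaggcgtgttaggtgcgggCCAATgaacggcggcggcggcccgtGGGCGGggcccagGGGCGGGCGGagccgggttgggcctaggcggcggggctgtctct
Kdm1b, chr13:47043299-47043498, plus strand: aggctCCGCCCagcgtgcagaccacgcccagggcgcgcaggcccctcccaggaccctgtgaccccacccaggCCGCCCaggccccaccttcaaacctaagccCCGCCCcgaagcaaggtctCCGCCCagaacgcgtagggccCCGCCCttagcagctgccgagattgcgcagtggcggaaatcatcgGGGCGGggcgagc
Kmt5a, chr5:124439730-124439929, plus strand: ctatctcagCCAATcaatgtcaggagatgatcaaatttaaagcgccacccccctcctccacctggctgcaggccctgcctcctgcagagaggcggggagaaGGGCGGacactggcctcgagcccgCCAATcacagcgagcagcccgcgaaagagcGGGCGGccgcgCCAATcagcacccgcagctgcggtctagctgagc
The Kdm1a stretch held 1 CCAAT box, that of Kmt5b 2 GC boxes, and that of Setd6 a GC box, an ETS match and 2 overlapping NRF1 matches, the GC box and the ETS match sharing bases. Among the genes held throughout, Kdm4a showed 1 CCAAT box, Kdm1b 6 GC boxes, Setd3 7 GC boxes and 2 CCAAT boxes, and Kmt5a 2 GC boxes and 3 CCAAT boxes. A match describes letters only and is not a bound site.

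Over the windows of 300 bases (250 upstream to 50 downstream) at the 47 listed starts of 36 enzyme genes, the median GC content was 61.7% and the median observed-to-expected CpG ratio 0.866. Over 21263 starts of all protein-coding genes they were 56.3% and 0.567. A GC box was present at 66.0% of the enzyme gene starts, against 46.2% of all starts, and a CCAAT box at 44.7%, against 38.2%. Matches for ETS factors were present at 17.0%, against 11.6%, and for NRF1 at 10.6%, against 6.38%. The CRE, YY1 and ZNF143 motifs each had a match at 1 of the 47 starts, or 2.13%, against 2.23%, 1.83% and 2.54% of all starts. Among enzyme gene starts, those held by 1 to 5 lists had the highest GC content, CpG ratio and share of GC boxes, with a median GC content of 71.3%, a CpG ratio of 0.936 and GC boxes at 84.2% of 19 starts. Those held by all 6 lists had a median GC content of 60.3%, a CpG ratio of 0.738 and GC boxes at 56.5% of 23 starts. For the CCAAT box the order was reversed, with 42.1% of the starts held by 1 to 5 lists and 56.5% of those held by all 6. The CCAAT box had the same order over all protein-coding genes, at 31.3% and 47.8%. Across all protein-coding genes the order was different for GC boxes, which were at 62.4% of the starts held by 1 to 5 lists and at 69.8% of those held by all 6. These are counts of letters over starts that partly share a gene, and no test was made.

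Genes held at mito and not at eG1-1 came from 4 of the 6 functional groups described below. The 6 genes held by both mito lists but neither eG1-1 list were Kdm1a, Kdm6a, Kdm7a, Kmt2c, Kmt5b and Setd6, or 13.6% of 44, where the background for protein-coding genes was 1.97%. Kdm6a is in this count by the position of its window, since at its RefSeq start all 6 lists had a peak. The 6 made up 17.6% of the 34 enzyme genes held by both mito lists, against 4.57% of the 9428 protein-coding genes so held. No enzyme gene was held by both eG1-1 lists but neither mito list (background 1.61%). None was held by both LM lists but neither mito list (background 0.356%), and 3 were held by both mito lists but neither LM list, namely Kdm1a, Kdm6a and Prmt3 (background 2.17%). Only Prmt3 was held by both eG1-1 lists but neither LM list (background 2.35%), and none by both LM lists but neither eG1-1 list (background 0.48%). The comparisons share their lists and are not independent of each other. Without eG1-1 replicate 2 the count held at mito and not at eG1-1 was 10, beside 7.88% of all genes. With peaks of a score of at least 50 it was 3, beside 2.58% of all genes. Of the 6 genes above only Kdm1a and Kdm6a remained at that score, and Setd2 was added. With all lists cut to 20639 peaks the count was 5, beside 5.35% of all genes, and of the 6 genes above again only Kdm1a and Kdm6a remained.

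Among the H3K4 methyltransferases, which deposit the mark of active promoters and enhancers, mito held 6 and 5 of 7 genes, LM 6 and 4, and eG1-1 5 and 5. Kmt2b, Setd1a and Setd7 were held by all 6 lists. Setd7, an enzyme that adds a single methyl group to H3K4 and to non-histone proteins, scored 58 and 68 at mito, 44 and 38 at LM, and 45 and 63 at eG1-1. Its median percentile within the lists, 50.5, was the lowest of the 22 genes held throughout. Its score of 38 in LM replicate 2 came from a separate region, centred 950 bp inside the gene. Setd1a, the catalytic subunit of a COMPASS complex, scored 62 and 95 at mito, 42 and 88 at LM, and 51 and 75 at eG1-1. Peaks lay at both its start and its end in all 6 lists, the end peak being shared with Hsd3b7 and scoring highest in 4 of them. Kmt2a, known as MLL1, scored 87 and 50 at mito, 59 and 0 at LM, and 25 and 62 at eG1-1. The LM replicate 2 list had a peak of score 35 just beyond its window, in the same merged region.

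Kmt2c and Kmt2d encode the large enzymes that place monomethyl H3K4 at enhancers, and their starts shared a pattern. Kmt2c scored 61 and 26 at mito, 64 and 0 at LM, and was in neither eG1-1 list. The score of 26 was low for its list, with a percentile of 8.83. The peaks lay on 2 neighbouring regions upstream of the Kmt2c start, on chr5 at 25499110-25499492 and 25499530-25500218. Both mito lists held the first region, whereas mito replicate 1 and LM replicate 1 held the second. The Kmt2c promoter window was 88.0% G or C and held 12 GC boxes, the most of the 47 starts. Kmt2d, by the gene-end rule, scored 57 and 0 at mito, 55 and 47 at LM, and 72 and 74 at eG1-1. That peak lies at the 3′ end of the gene and is shared with Prkag1. At the start listed by RefSeq, 2872 bp inside the annotated one, Kmt2d scored 99 and 65 at mito, 58 and 0 at LM, and 0 and 0 at eG1-1. The 2 ends of Kmt2d thus differed in which lists held them, and its start was held by both mito lists but neither eG1-1 list. Setd1b, the paralog of Setd1a, had no gene-end peak, although 2 regions inside the gene were held by all 6 lists, with scores of 31 to 169.

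The other Kmt and Setd genes number 11, of which mito held 11 and 10, LM 9 and 7, and eG1-1 5 and 9. Kmt5a, the H4K20 monomethyltransferase whose protein is tied to the cell cycle, was among the highest ranked, with 169 and 260 at mito, 289 and 173 at LM, and 233 and 415 at eG1-1. A separate peak at its end, with a score of 26 in LM replicate 2 only, is shared with Rilpl2. Setd3, known as the histidine methyltransferase of actin, scored 363 and 307 at mito, 408 and 276 at LM, and 184 and 371 at eG1-1, and its peak is shared with Ccnk. Their median percentiles were 98.0 and 99.0. Kmt5c, which together with Kmt5b makes di- and trimethyl H4K20, was also held throughout, at scores of 118 to 292.

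Kmt5b scored 26 and 42 at mito, 40 and 0 at LM, and 0 and 0 at eG1-1, so that the 2 paralogs differed in how many lists held them. All of its scores were low for their lists, with percentiles of 10.7, 29.9 and 33.4. Around the inner of its 2 listed starts, 527 bp inside the annotated one, eG1-1 replicate 1 also held a peak, with a score of 27. Setd6, known to methylate the NF-κB subunit RelA, scored 56 and 38 at mito, 0 and 51 at LM, and 0 and 0 at eG1-1. The peaks scored 56 and 51 are shared with Ndrg4, and the one scored 38 is not. Setd2, the enzyme that trimethylates H3K36, scored 58 and 84 at mito, 52 and 0 at LM, and 0 and 13 at eG1-1, the last being the minimum score of the list. Setd4 scored 47 and 86 at mito, 57 and 16 at LM, and 0 and 73 at eG1-1, lacking only eG1-1 replicate 1. Kmt2e, a family member regarded as lacking methyltransferase activity, scored 171 and 78 at mito, 88 and 0 at LM, and 0 and 92 at eG1-1.

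The H3K9 methyltransferase gene Setdb1, which silences endogenous retroviruses in embryonic stem cells, was held by 1 mito list, with a score of 74, by no LM list, and by 1 eG1-1 list, with 113. Replicates of a stage thus disagreed for this gene. Its relative Setdb2 was held throughout, at 141 and 164 at mito, 170 and 96 at LM, and 118 and 358 at eG1-1, by a peak it shares with Cab39l and Gm45935. Setd5 was also held throughout, at 34 to 117, but at its annotated start. At the start listed by RefSeq, 27673 bp further in, only eG1-1 replicate 2 had a peak, with a score of 50.

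Among the 6 H3K4 demethylase genes, mito held 4 and 4, LM 3 and 3, and eG1-1 3 and 3. Kdm1a encodes LSD1, the flavin-dependent demethylase required for embryonic stem cells to differentiate normally. Its start scored 69 and 75 at mito and was in none of the 4 later lists. The region spans chr4:136602739-136603099, is centred 132 bp upstream of the annotated start and is not shared with a neighbour. Kdm1a stayed among the genes held by both mito lists but neither eG1-1 list in all 10 alternative settings and left-out lists. Its paralog Kdm1b, known for demethylating H3K4 in oocytes, was held throughout at high scores of 242 and 215 at mito, 250 and 224 at LM, and 232 and 508 at eG1-1. The Kdm1b peak is shared with Tpmt.

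Kdm5a, Kdm5b, Kdm5c and Kdm5d encode the JmjC enzymes that remove di- and trimethyl H3K4. Kdm5c, on the X chromosome, was held throughout, with 145 and 90 at mito, 53 and 28 at LM, and 23 and 75 at eG1-1. Both mito scores lay above all later scores, and the percentiles were 91.1 and 71.7 at mito, 50.7 and 19.7 at LM, and 10.3 and 64.7 at eG1-1. Kdm5a was held throughout at 57 to 173 by a peak shared with Ccdc77. Kdm5b had no gene-end peak, yet a region centred 10627 bp inside the gene scored 111 and 149 at mito, 68 and 86 at LM, and 130 and 143 at eG1-1. Kdm5d, on the Y chromosome, had no peak at its ends or inside it.

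The 9 H3K9 and H3K36 demethylase genes were held at 6 and 5 at mito, 7 and 5 at LM, and 5 and 6 at eG1-1. Kdm4a, which acts on trimethyl H3K9 and H3K36, had the highest median percentile of all members held throughout, 99.4. It scored 302 and 351 at mito, 565 and 333 at LM, and 345 and 497 at eG1-1, and its region chr4:118179426-118180529 is not shared with a neighbour. Kdm3a, Kdm4b, Kdm4d and Kdm8 were also held throughout. Kdm4d scored 157 and 165 at mito, 149 and 145 at LM, and 50 and 184 at eG1-1, so that only eG1-1 replicate 1 stood apart, and its peak is shared with Cwc15. Kdm2a was held by mito replicate 1 at 95 and by LM replicate 1 at 38, both of run NXT1088, by peaks shared with 9430078G10Rik. Kdm3b was held by LM replicate 1 at one end, with 49, and by eG1-1 replicate 2 at the other end, with 59, the second peak being shared with Reep2. Kdm4c was without a gene-end peak at its annotated start, but around its inner listed start, 9382 bp further in, it scored 39 and 74 at mito, 100 and 31 at LM, and 63 and 61 at eG1-1. Kdm2b, a CpG-island-binding partner of a Polycomb complex, had no peak at the annotated ends. At its inner listed starts it scored 0 and 78 at mito, 99 and 0 at LM, and 0 and 62 at eG1-1.

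The group of Kdm6a, Kdm6b and Kdm7a, whose products demethylate H3K27, was held at 2 and 2 of 3 at mito, 0 and 1 at LM, and 0 and 1 at eG1-1. Kdm6a, the X-linked gene for UTX, scored 129 and 77 at mito and 0 in the other 4 lists by the gene-end rule. This pattern came from where the window ended. The RefSeq start of Kdm6a lies 1713 bp inside the annotated start, and around it the gene scored 129 and 77 at mito, 79 and 35 at LM, and 44 and 110 at eG1-1. All 6 lists thus had a peak at this start, on chrX:18161831-18162779. Kdm7a, which acts on dimethyl H3K9 and H3K27, scored 34 and 36 at mito, 0 and 19 at LM, and 0 and 0 at eG1-1. These too were low for their lists, with percentiles of 23.0, 23.4 and 7.07. Kdm6b, known as JMJD3, had a gene-end peak in eG1-1 replicate 2 only, with a score of 22 and shared with Dnah2, while a region inside the gene was held by all 6 lists at scores of 36 to 128.

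**Figure D3:**
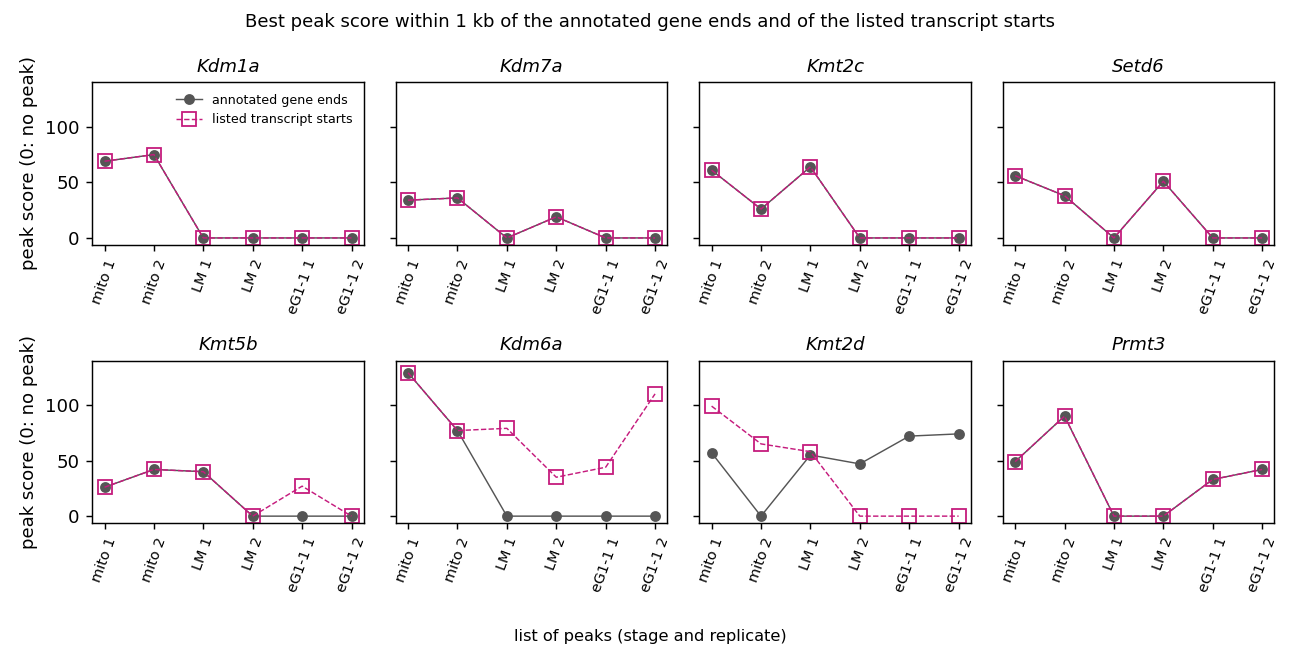
Highest peak score in each list for 8 genes, within 1 kb of the annotated gene ends (filled circles) and within 1 kb of the transcript starts listed by RefSeq (open squares), with 0 where no peak was listed. The 2 rules gave the same values for Kdm1a, Kdm7a, Kmt2c, Setd6 and Prmt3, and differed for Kmt5b, Kdm6a and Kmt2d.

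Counted at the listed starts of the 36 genes with an entry, a choice made after the values had been seen, 5 enzyme genes were held by both mito lists but neither eG1-1 list. They were Kdm1a, Kdm7a, Kmt2c, Kmt2d and Setd6, beside a background of 1.98% for 17492 genes. No gene was held by both eG1-1 lists but neither mito list (background 1.37%), by both LM lists but neither mito list (background 0.36%) or by both LM lists but neither eG1-1 list (background 0.412%). Kdm1a and Prmt3 were in both mito lists but neither LM list (background 2.1%), and Prmt3 in both eG1-1 lists but neither LM list (background 2.14%). All 6 lists held 20 of the 36 (background 29.3% of genes). By list, mito held 88.9% and 88.9% of the 36, LM 77.8% and 63.9%, and eG1-1 63.9% and 77.8%. The same shares of the 17492 genes were 48.3% and 52.0% at mito, 49.3% and 37.0% at LM, and 43.4% and 53.2% at eG1-1. Both ways of placing the start thus gave higher shares in both mito lists than in any later list, while over all genes eG1-1 replicate 2 was the highest.

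The arginine methyltransferase genes were the group most completely held, with 8 and 8 of 8 at mito, 7 and 6 at LM, and 7 and 8 at eG1-1. Prmt1, the main source of asymmetric dimethylarginine in mammalian cells, scored 356 and 263 at mito, 279 and 185 at LM, and 270 and 322 at eG1-1, with a median percentile of 98.2. Prmt5, the main symmetric arginine methyltransferase, scored 261 and 195 at mito, 179 and 147 at LM, and 192 and 267 at eG1-1. For Prmt1 the 3 stages overlapped in score, while for Prmt5 both LM scores lay below those of the other stages. In rank over the regions held by all 6 lists, however, the LM values of Prmt5 lay within those of mito and of eG1-1. Prmt6 had the fourth lowest median percentile among the 22, 73.2, with 73 and 128 at mito, 86 and 44 at LM, and 73 and 96 at eG1-1. Prmt2, Prmt7 and Prmt9 were held throughout at scores of 50 to 235.

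Prmt3, which methylates the ribosomal protein Rps2, was the member missing from LM and present on both sides of it. It scored 49 and 90 at mito, 0 and 0 at LM, and 33 and 42 at eG1-1. Its peaks lie on 2 regions, and the one present in both eG1-1 lists, chr7:49779038-49779741, is centred 1070 bp inside the gene, at the edge of the window. With the narrower window of 500 bp, and under 3 other settings, no enzyme gene was held by both eG1-1 lists but neither LM list. Prmt8, the membrane-bound and chiefly neuronal member of the family, scored 30 and 47 at mito, 40 and 0 at LM, and 0 and 62 at eG1-1.

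Genes held by all 6 lists have a rank in every list, although the peak that gives it can differ between lists, as for Setd7 and Setd1a. The median percentiles of the 22 enzyme genes were 90.8 and 93.1 at mito, 91.0 and 82.5 at LM, and 85.9 and 95.1 at eG1-1. Those of the 6081 protein-coding genes held by all 6 lists were 82.9 and 86.4 at mito, 84.0 and 77.7 at LM, and 82.9 and 89.2 at eG1-1. Peaks at the ends of enzyme genes had median widths of 593 and 603 bp at mito, 698.5 and 483.5 bp at LM, and 446 and 633 bp at eG1-1. For all gene-end peaks the widths were 543 and 578 bp at mito, 553 and 379 bp at LM, and 399 and 489 bp at eG1-1, so the enzyme gene peaks had the wider median in every list.

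The change in rank between stages was tested with limma over the 10114 regions present in all 6 lists. Of these, 24 lay at the ends of enzyme genes. Ranks within each list were turned into normal scores, so that a unit is 1 standard deviation of the ranked regions. No region passed a Benjamini-Hochberg adjusted p of 0.05 in any contrast, neither among the 24 nor among all 10114 (percent called 0). At an unadjusted p under 0.05, 3 of the 24 regions passed for eG1-1 against mito (background 15.2%), 1 for LM against mito (background 7.31%) and 1 for eG1-1 against LM (background 8.05%). The smallest adjusted p of limma over the 24 was 0.203 for eG1-1 against mito, 0.683 for LM against mito and 0.606 for eG1-1 against LM. The median change of the 24 was -0.40 for eG1-1 against mito, where the 5208 gene-end regions had a median of -0.12, and 16 of the 24 lay below 0, against 56.5% of those regions. For LM against mito the median was -0.23, against -0.01, and for eG1-1 against LM it was -0.10, against -0.11. These medians moved when 1 list was left out. For eG1-1 against mito the median was -0.25 without eG1-1 replicate 1 and also without eG1-1 replicate 2. For LM against mito it was 0.0062 without mito replicate 1, -0.07 without mito replicate 2, -0.47 without LM replicate 1 and -0.12 without LM replicate 2. For eG1-1 against LM it was 0.07 without eG1-1 replicate 1, -0.25 without eG1-1 replicate 2, 0.01 without LM replicate 1 and -0.25 without LM replicate 2. The sign for LM against mito and for eG1-1 against LM thus depended on single lists.

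The regions below were named after their values had been seen, since each had an unadjusted p under 0.05. Kdm5c changed by -1.83 ± 0.58 (SE) in eG1-1 against mito, with a limma adjusted p of 0.203, and by -1.39 ± 0.58 in LM against mito, with an adjusted p of 0.683. Prmt7, whose product makes monomethylarginine, scored 137 and 201 at mito, 127 and 64 at LM, and 68 and 95 at eG1-1. Its change in eG1-1 against mito was -1.44 ± 0.47, with a limma adjusted p of 0.209, and its peak is shared with Slc7a6os. Kmt2a changed by -1.17 ± 0.52 in eG1-1 against mito (limma adjusted p 0.323), and Kdm4d by -1.19 ± 0.52 in eG1-1 against LM (limma adjusted p 0.606). None of these differences passed the test, and the adjusted p of Kdm5c for eG1-1 against mito ranged from 0.122 to 0.651 over 10 alternatives. With 1 list left out, the change of Kdm5c in eG1-1 against mito ranged from -2.45 to -1.18, the smallest being without eG1-1 replicate 1. Its change in LM against mito ranged from -1.99 to -0.79, the smallest being without mito replicate 1. Kmt2a ranged from -1.67 to -0.60 and Kdm4d from -1.85 to -0.51, in each case with the smallest change without eG1-1 replicate 1 and the largest without eG1-1 replicate 2. Prmt7 ranged from -1.64 to -1.24. For Kdm5c and Prmt7 the scores of the eG1-1 and mito lists did not overlap.

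**Figure D4:**
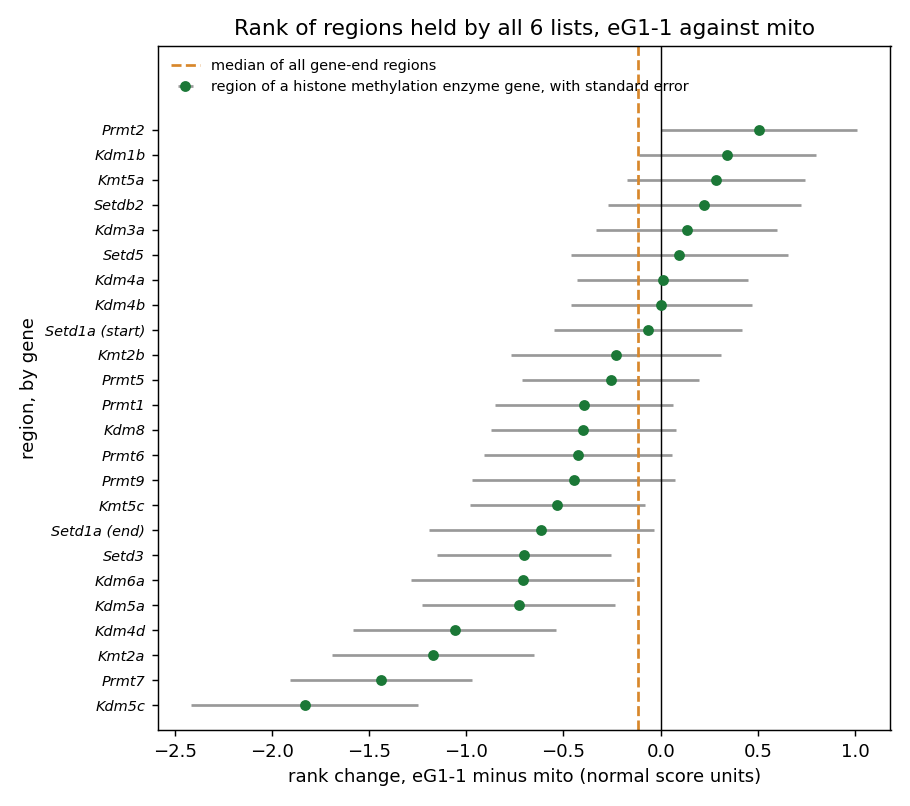
Change in rank of the 24 enzyme gene regions held by all 6 lists, eG1-1 minus mito in normal score units, with the standard error of limma as bars. The dashed line is the median of all 5208 gene-end regions, -0.12, and no region passed the adjusted threshold.

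Inside the enzyme genes, more than 1 kb from any gene end, peaks were most frequent at eG1-1. Mito had 28 and 31 such peaks, LM 29 and 23, and eG1-1 42 and 61. Per 100 kb of gene this was 1.15 and 1.27 at mito, 1.19 and 0.943 at LM, and 1.72 and 2.50 at eG1-1. Over all protein-coding genes the densities were 0.691 and 0.937 at mito, 0.684 and 0.651 at LM, and 1.14 and 1.85 at eG1-1, so that both sets had their 2 highest values at eG1-1. The eG1-1 lists are also the 2 longest, and the part of list length in this density was not tested. At the gene ends, by contrast, the 2 mito lists held the most enzyme genes when all listed peaks were counted. This order did not hold in full with a score of at least 50 or with lists of equal length.

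**Figure D5:**
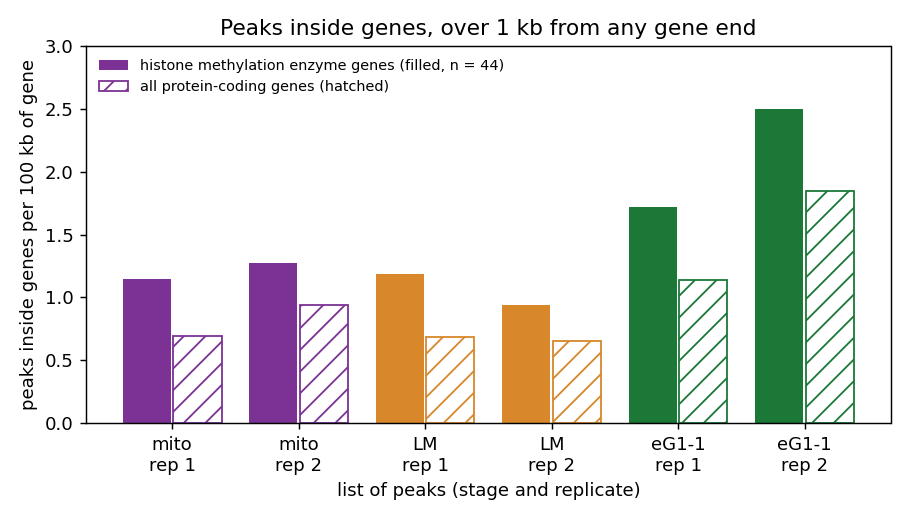
Peaks inside genes and more than 1 kb from any gene end, per 100 kb of gene, in each list, for the 44 histone methylation enzyme genes (filled bars) and all protein-coding genes (hatched bars). The eG1-1 lists stand highest for both sets, at 1.72 and 2.50 for the enzyme genes.

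Peaks inside the enzyme genes merged into 81 regions. All 6 lists held 8 of them (background 9.13%), in Kdm3a, Kdm4c, Kdm5b, Kdm6b, Setd1b and Setd7. The Kdm3a region and the Kdm4c region centred 9742 bp inside the gene span transcript starts listed by RefSeq. For Kdm6b and Setd1b no starts were listed. The Setd7 region, centred 20885 bp inside the gene, scored 73 and 111 at mito, 59 and 64 at LM, and 117 and 144 at eG1-1. Held by both eG1-1 lists but neither mito list were 5 of the 81 (background 9.83%), in Kdm3b, Kdm6b, Prmt9 and Setd3. The opposite pattern was seen for 1 (background 1.26%), the region of Kmt2d beside its listed start. Against LM, 9 of the 81 were held by both eG1-1 lists but neither LM list (background 10.7%), and none by both LM lists but neither eG1-1 list (background 0.347%). Both mito lists and neither LM list held 2 (background 3.05%), and both LM lists but neither mito list held none (background 1.03%). These shares were near their backgrounds.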

How the data were processed

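ATAC-seq peak lists of 6 libraries were used, 2 for each of 3 stages, grouped by the sample titles. Each deposited list has 5 columns, of which the fifth is the authors' score, a whole number per peak. Tools in the submitters' processing notes, listed without their roles, are MACS2 2.2.4, bedtools, STAR 2.7.0e, deepTools 3.5.1, Picard and SAMtools 1.10, with the builds mm10 and GRCm38. Per the peak names in the deposited files, peaks were called for each library from paired-end alignments. Read counts were not used here, so depth and counting error are unknown.

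Peaks overlapping by at least 1 bp were merged into regions. Genes came from RefSeq for GRCm38.p6. Its promoter table gave starts, strand and sequence for 36 of the 44 genes. Kmt2e, Setd1b, Kdm5a, Kmt2b, Kdm6b, Kdm4b, Kdm3b and Kdm2a had no entry. A percentile is the share of peaks in a list with a score at or below the gene's. A region's rank change was tested with limma 3.58.1 in R 4.3.3, in 1 fit over 6 lists and 3 stages, after a check on simulated data. Other steps used Python 3.11.15 with pandas 2.3.3 and scipy 1.17.1.

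The genes and lists were chosen with earlier results of these data known. Values in every list were given for members held by both lists of one stage and neither list of another, for the 4 highest and 4 lowest median percentiles among those held throughout, and for those held by exactly 5 lists. Further genes were named after their values were seen. Same-numbered lists were not treated as pairs. Correlations of their deviations were 0.0373, 0.0548 and 0.0866 over 10114 regions.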

Additional observations from a re-analysis of the deposited data

How the results depend on the processing

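The count of enzyme genes held by both mito lists but neither eG1-1 list was 6. With peaks of a score of at least 50 it was 3, beside 2.58% of all genes. Setd2 was then added, and only Kdm1a and Kdm6a of the original 6 remained. With 1 list left out the count lay between 6 and 10, the 10 coming without eG1-1 replicate 2, beside 7.88% of all genes. These counts include Kdm6a, whose call depends on the window. With lists cut to the strongest 20639 peaks it was 5, beside 5.35% of all genes, and 2 of the 5 (Kdm1a and Kdm6a) were among the original 6. The count for both eG1-1 lists but neither LM list, 1, was 0 with a window of 500 bp, with the peak centre required in the window, with a score of at least 50 and with lists of equal length. The count for both LM lists but neither eG1-1 list, 0, was 1 (Setd4) with the peak centre. With 1 list left out, the count for eG1-1 and not mito ranged from 0 to 2. The 2 came without eG1-1 replicate 1, beside 5.44% of all genes. The ranges were 0 to 1 for LM and not mito, and 3 to 9 for mito and not LM. The 9 came without LM replicate 1, and without LM replicate 2 it was 5. They were 1 to 3 for eG1-1 and not LM, 0 to 3 for LM and not eG1-1, and 22 to 23 for all lists. For the counts that involve LM or all lists, shares of all genes were computed for no alternative except the listed starts, and for no left-out list. Whether these counts exceed the shares of all genes therefore cannot be told. Mean shares of enzyme genes held in mito were 73.9% with a window of 500 bp and with lists of equal length, 69.3% with a score of at least 50 and 88.9% at listed starts. With a score of at least 50 the share was 51.1% in LM and 56.8% in eG1-1, where replicate 2 equalled mito replicate 2. In eG1-1 the share was 53.4% with lists of equal length. Leaving out a list gave 77.3% to 84.1% at mito, 59.1% to 72.7% in LM and 56.8% to 72.7% at eG1-1. The limma test called 0 enzyme gene regions in each contrast under every alternative run and with each list left out, and with the replicate number as a block, which changed no call, also 0. Same-numbered lists share a sequencing run. The correlations of their deviations were all under 0.1, but they cover only regions held by all 6 lists and not which peaks were listed. The causes of these shifts were not tested, apart from those set by the alternative itself. Read depth is unknown, which limits what a missing peak can show.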

Other observations

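Other genes of histone methylation, 47 in a list of further methyltransferases, demethylases and partner proteins chosen with earlier results known, were held at 34 and 34 at mito, 38 and 23 at LM, and 26 and 36 at eG1-1. All 6 lists held 17 of them (background 27.8%), and 6 were held by no list (background 38.6%). Of the 47, 1 was held by both mito lists but neither eG1-1 list (background 1.97%). It was Atf7ip, a partner of Setdb1, with 24 and 41 at mito, 102 and 0 at LM, and 0 and 0 at eG1-1. Nsd2, an H3K36 methyltransferase, was in both mito lists but neither LM list (background 2.17%), with 67 and 59 at mito, 0 and 0 at LM, and 0 and 60 at eG1-1. Smyd2 was in both LM lists alone, with 0 and 0 at mito, 22 and 27 at LM, and 0 and 0 at eG1-1. The backgrounds for LM were 0.356% against mito and 0.48% against eG1-1. No gene of the 47 was held by both eG1-1 lists but neither mito list (background 1.61%).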
